A study of Mus musculus with 2 samples.

Results

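The 10 transcripts described here, Gm49273, Gm48501, Gm48415, Gm48401, Gm21833, Gm21750, Gm43540, Gm48493, Gm47356 and Gm26870, carry only provisional mouse gene symbols and were picked from 54146 gene identifiers because they led a group of cells that came mostly from the wild-type library. They were therefore chosen from measured values of these same cells, and their difference between the libraries is a description with no test. The data were inDrop single-cell RNA-seq counts of unique molecular identifiers (UMIs) from 1 library of wild-type (a2.1) and 1 library of *Lin28a* knockout (a3.5) mouse ES cells derived from the inner cell mass. The labels name no treatment besides the knockout. Both were grown for 2 days on gelatin with mouse embryonic fibroblast feeders in LIF/2i medium. The knockout was made with Cas9 and a guide to the second exon of the gene, and clones were picked after selection. The study's supplement lists a2.1 as a transfected wild-type clone and a3.5 as a knockout clone, beside un-transfected E14 cells. Genotype, clone and library therefore cannot be told apart. Barcodes with 500 UMIs or more and no more than 20% mitochondrial UMIs were taken as cells, and 1856 wild-type and 1622 knockout cells were kept, with medians of 6140 and 5063.5 UMIs per cell.

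LINE-1 (L1) elements are among the most abundant retrotransposons of mammalian genomes, and their longer open reading frame, ORF2, encodes the endonuclease and reverse transcriptase with which they copy themselves. L1 RNA is made in early embryos and ES cells, where it has been placed in a nuclear complex with nucleolin and TRIM28. Major (gamma) satellite DNA forms long tandem arrays at the pericentromeres of mouse chromosomes, and its transcripts are noncoding and largely stay in the nucleus.

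Of the 10 transcripts, 9 were copies of 1 repeated sequence. The annotation (GENCODE M21, GRCm38) called 7 of them processed pseudogenes and the other two, Gm21833 and Gm21750, protein-coding. They lay on several chromosomes, at chr15:103657839-103661681 (Gm49273), chr13:17360294-17364134 (Gm48501), chr12:63170181-63171903 (Gm48415), chr9:36376974-36380808 (Gm48401), chr16:82828382-82829881 (Gm21833), chr14:73661225-73662721 (Gm21750), chr5:11460424-11464271 (Gm43540), chr13:16385919-16389759 (Gm48493) and chr10:48678011-48681857 (Gm47356). Each was annotated as 1 exon with no intron. Over the 36 pairs of these 9, between 26.7% and 84.7% of the 25-base words of the smaller transcript were found in the other, with a median of 46.0%. Gm48415 and Gm47356 were the closest pair, and Gm21750 and Gm48493 the most distant. Gm49273 had an uninterrupted reading frame of 1281 codons over its 3843 bases and Gm48493 one of 1280 codons, whereas Gm47356, of 3847 bases, had none longer than 410 codons. Gm48415, Gm21833 and Gm21750 were shorter pieces of 1723, 1500 and 1497 bases. The sequence is that of L1 ORF2, which only Gm49273 and Gm48493 keep as 1 open frame of full length. The name is given here from general knowledge, since no repeat annotation was used. These 9 are called L1-like below.

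The longest stretch present in all 9 L1-like transcripts was 44 bases long, and it is shown with the 56 bases that follow it because a read inside the common stretch could come from any of the 9. The window was chosen for its likeness and is closer than the transcripts are over their whole length. Capitals mark the bases that differ from the commonest base at that position.
Gm49273: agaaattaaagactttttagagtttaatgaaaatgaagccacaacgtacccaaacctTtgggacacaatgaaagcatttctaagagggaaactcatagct
Gm48501: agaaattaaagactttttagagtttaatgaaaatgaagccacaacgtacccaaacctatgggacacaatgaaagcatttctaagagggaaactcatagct
Gm48415: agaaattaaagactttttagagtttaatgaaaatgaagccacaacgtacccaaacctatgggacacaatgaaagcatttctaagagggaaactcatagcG
Gm48401: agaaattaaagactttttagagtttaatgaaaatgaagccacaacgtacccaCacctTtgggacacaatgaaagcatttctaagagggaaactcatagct
Gm21833: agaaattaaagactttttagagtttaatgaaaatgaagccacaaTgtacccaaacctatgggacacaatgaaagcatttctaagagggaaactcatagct
Gm21750: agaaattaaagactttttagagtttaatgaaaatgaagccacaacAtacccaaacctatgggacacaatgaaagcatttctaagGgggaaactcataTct
Gm43540: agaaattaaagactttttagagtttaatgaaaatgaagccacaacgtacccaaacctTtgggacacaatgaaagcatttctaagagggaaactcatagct
Gm48493: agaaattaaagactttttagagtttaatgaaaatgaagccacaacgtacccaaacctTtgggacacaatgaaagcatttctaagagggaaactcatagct
Gm47356: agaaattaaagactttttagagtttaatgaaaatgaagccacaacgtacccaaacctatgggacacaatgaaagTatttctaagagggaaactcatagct
The 100 bases shown begin at base 825 of Gm49273 and lie there at chr15:103658663-103658762 on the plus strand. Of the 100 positions shown, 8 differed in at least 1 copy, and single copies held between 0 and 3 unlike bases. By its sequence, a read wholly inside the 44 common bases cannot be assigned to 1 of the 9 copies. A read that covers an unlike base may be. How such reads were mapped is not given in the sources used here, so every level of a single L1-like transcript is uncertain.

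Gm26870 was of another kind. It was annotated as a lincRNA of 3 transcripts at chr9:3000282-3038313 on the minus strand and shared 0 of its 25-base words with the L1-like transcripts. Its longest transcript, of 1170 bases in 4 exons, matched itself best when shifted by 234 bases, with 81.5% of bases equal, against a median of 30.6% over all shifts tried. The unit and its sequence are those of the major satellite, again named from general knowledge. One unit is shown from the start of an exon, at chr9:3014124-3014357 on the minus strand, with runs of 3 or more A in capitals.
Gm26870: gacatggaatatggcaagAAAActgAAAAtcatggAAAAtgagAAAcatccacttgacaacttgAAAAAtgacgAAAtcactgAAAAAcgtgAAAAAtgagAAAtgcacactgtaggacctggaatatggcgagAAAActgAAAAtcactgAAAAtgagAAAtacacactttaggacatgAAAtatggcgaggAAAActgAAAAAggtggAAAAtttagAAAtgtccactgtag
Lesser matches at shifts of 58, 118 and 176 bases showed the sub-repeats inside the unit. On the opposite strand of the same interval the annotation placed 9 protein-coding genes, Gm10715, Gm10717 to Gm10722, Gm11168 and Gm17535.

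All 10 transcripts were rich in A. Between 39.5% and 45.8% of their bases were A, against a median of 26.7% over the longest transcripts of 29786 genes of at least 1000 bases, and only 0.359% of those genes reached the lowest value among the 10. Their longest runs of A were 6 to 8 bases, where the median gene had 6. Reads of this method start from an oligo(dT) primer, and whether internal A stretches took part in the levels was not tested.

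**Figure D1:**
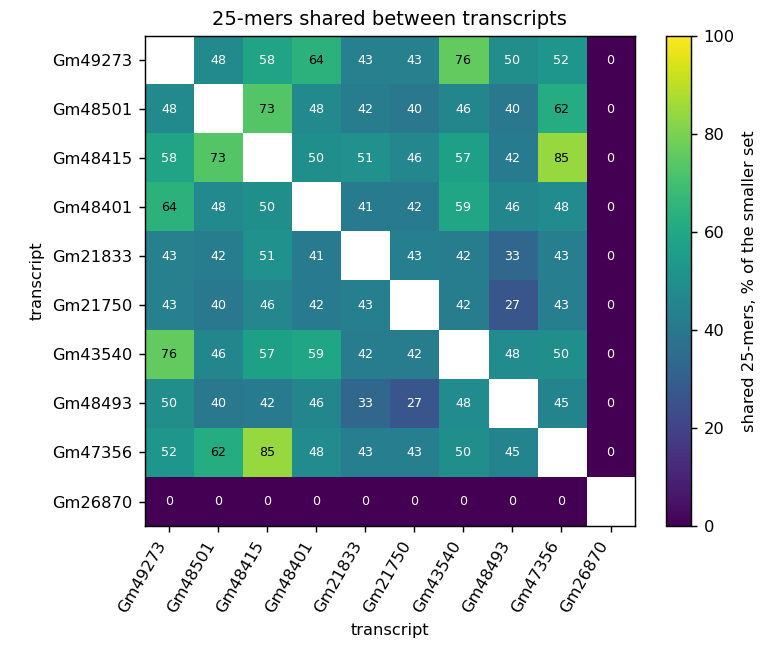
Share of 25-base words (25-mers) of the smaller transcript found in the other, in percent, for each pair of the 10 transcripts. The L1-like transcripts share 26.7% to 84.7% with each other, and Gm26870 shares 0 with any of them.

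The labels and cells were checked first. *Lin28a* itself was measured at 107 counts per 1000000 (CPM; UMIs summed over the kept cells, per 1000000 of their total) in wild-type and 36.6 CPM in knockout cells. Reads of this method come from the 3' end, outside the edited exon, so this level does not check the edit itself. All 10 ES cell markers looked at, among them *Pou5f1*, *Sox2* and *Nanog*, were detected in both libraries and none differed by 2-fold. The 8 fibroblast markers *Col1a1*, *Col1a2*, *Col3a1*, *Dcn*, *Lum*, *Postn*, *Thy1* and *Pdgfrb* summed to 739 CPM in wild-type and 260 CPM in knockout cells, and 41 wild-type and 21 knockout cells had at least 0.5% of their UMIs on the 3 collagen genes. Barcodes were deposited under running numbers, so sequences that the libraries share were not counted here.

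The satellite-like Gm26870 was the most abundant of the 10. It held 7009 UMIs in wild-type cells, or 602 CPM (95% Poisson interval 588 to 616), and 1718 UMIs in knockout cells, or 184 CPM (175 to 193). The wild-type level was 3.27 times the knockout level (interval for the ratio of counts 3.11 to 3.45). These intervals cover counting error only, and with 1 library per genotype there is no replicate check and no p-value.

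The 9 L1-like transcripts together held 12114 UMIs in wild-type cells, 1041 CPM (1022 to 1059), and 3684 UMIs in knockout cells, 394 CPM (382 to 407), a ratio of 2.64 (2.54 to 2.74). They thus made up 0.104% of all wild-type and 0.0394% of all knockout UMIs. Gm48415 was measured at 246 CPM (237 to 255) in wild-type cells, beside 93.2 CPM (87.2 to 99.7) in knockout cells. Gm48493, which keeps a full-length frame, was measured at 235 CPM (227 to 244) and 92.0 CPM (85.9 to 98.3). The intervals of Gm48415 and Gm48493 overlapped in each library, so their order is not resolved.

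Gm49273, which also keeps a full-length frame, had the widest ratio of summed UMIs. It was measured at 185 CPM (177 to 193) in wild-type cells, beside 44.3 CPM (40.2 to 48.8) in knockout cells, 4.17 times (3.75 to 4.64). It stood at rank 8 by this ratio among the 9835 genes with at least 200 UMIs over both libraries. In the knockout library its level did not exceed that of Gm48501, which was measured at 48.1 CPM (43.7 to 52.7), whereas in the wild-type library Gm48501 was lower at 113 CPM (107 to 119).

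The other L1-like copies were rarer. Gm43540 was measured at 88.5 CPM in wild-type cells, beside 36.5 CPM in knockout cells, a ratio of 2.42 (2.14 to 2.75). Gm47356 gave 69.5 and 34.6 CPM, a ratio of 2.01 (1.76 to 2.29). Gm21750, one of the pair annotated as protein-coding, gave 54.8 and 27.8 CPM, a ratio of 1.97 (1.70 to 2.28). Neighbours in the order were thus close, and Gm47356 and Gm21750 lay just above and just below 2-fold with intervals that hold it. Gm48401 gave 34.8 and 12.95 CPM, a ratio of 2.69 (2.19 to 3.32). Gm21833, the other one annotated as protein-coding, rested on 167 and 46 UMIs, 14.3 and 4.92 CPM, a ratio of 2.91 (2.09 to 4.13).

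**Figure D2:**
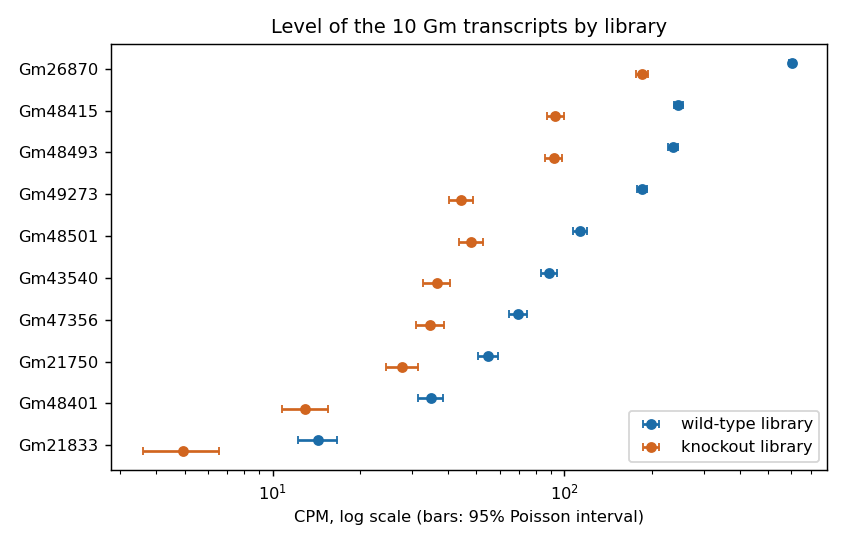
CPM of each of the 10 transcripts in the wild-type and the knockout library on a log axis, with 95% Poisson intervals as bars. Every transcript is higher in the wild-type library, from Gm21833 at 14.3 against 4.92 CPM to Gm26870 at 602 against 184 CPM.

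Of the 10 transcripts 9 were at least 2-fold higher in the wild-type library, against 1.78% of the 9835 genes with at least 200 UMIs (175 genes), and their median log2 ratio was 1.38 against -0.02 over all these genes. Since this contrast chose them, nothing is read from that count. Without the feeder-like cells the summed ratio of all 10 was 2.87 (2.78 to 2.96), beside 2.84 (2.76 to 2.93) with them. When each cell was weighted equally, 6 of the 10 stayed at 2-fold or more. In that setting Gm26870 had the widest ratio, 3.70, against 2.88 for Gm49273. Gm48501 gave 1.99, Gm43540 1.77, Gm47356 1.66 and Gm21750 1.61.

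Other annotations that share the sequence were mostly higher in the wild-type library too. Besides the 9 L1-like transcripts, 59 annotated genes shared at least 20% of their 25-base words with them in the same orientation, a rule set after the data were seen. Of the 32 with at least 200 UMIs, 31 were higher in the wild-type library, 13 by 2-fold or more (40.6%, against the 1.78% of all genes), with a median ratio of 1.93. Gm17131, an unprocessed pseudogene with 97.9% of its words in common, gave a ratio of 2.96 (999 against 271 UMIs). Gm47031, annotated inside an intron of another gene and with 62.3% in common, was the exception at 0.71 (2000 against 2252 UMIs). These genes can draw on the same reads as the 9, so they are not independent of them.

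Annotations that hold the L1-like sequence in the opposite orientation had a lower median ratio. Of 18 such genes 7 had at least 200 UMIs, 6 of these were higher in the wild-type library, and their median ratio was 1.40. Of the 7, 0 reached 2-fold, against 1.78% of all genes, and nothing is read from that count. Gm47221, a lincRNA, was lower in the wild-type library at 0.67 (92 against 110 UMIs). Gm26905, a lincRNA, gave 1.34 (1579 against 947 UMIs). For the satellite, 12 genes held its sequence on the other strand and 3 had at least 200 UMIs, with ratios of 1.66 to 1.96, among them Gm10800 with 957 wild-type and 391 knockout UMIs. The 9 genes opposite to Gm26870 held between 5 and 183 wild-type UMIs each, against the 7009 of Gm26870. *Sugct*, in which Gm48501 lies on the other strand, held 6 wild-type and 14 knockout UMIs, and Gm49274, opposite to Gm49273, held 11 and 13. Whether the counting used strand is not given in the sources used here.

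**Figure D3:**
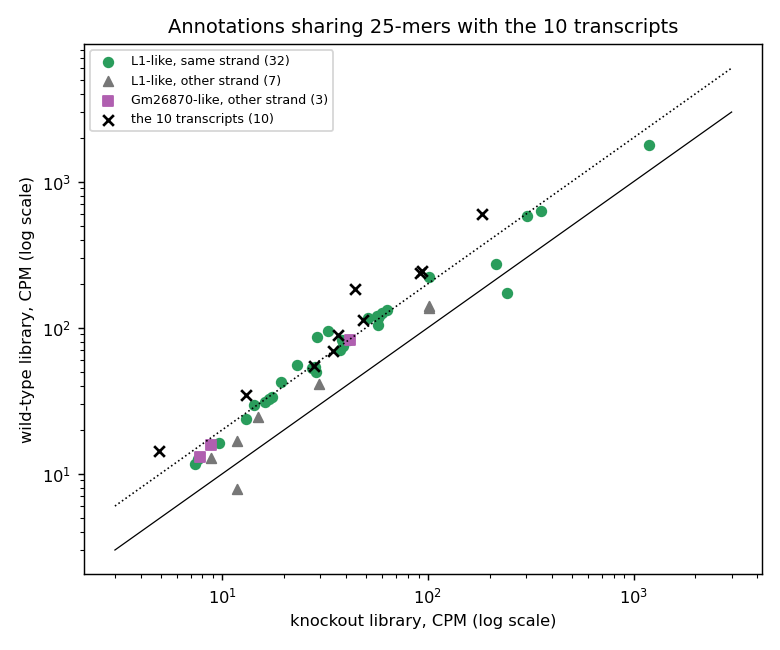
CPM in the wild-type against the knockout library on log axes, for annotations with at least 200 UMIs that share 25-mers with the 10 transcripts, by kind and strand, and for the 10 themselves (crosses). The solid line marks equal levels and the dotted line 2-fold, and 31 of the 32 L1-like genes of the same strand lie above the solid line.

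A Gm symbol by itself did not go with a higher wild-type level. Among all other genes named Gm and a number, 1370 had at least 200 UMIs, of which 44 (3.21%, against 1.78% of all genes) were at least 2-fold higher in the wild-type and 62 at least 2-fold higher in the knockout library, a direction that 113 (1.15%) of all 9835 genes took. These 1370 include L1-like annotations described above. For the 818 Gm processed pseudogenes that are not L1-like, the counts were 16 (1.96%) and 49, with a median log2 ratio of -0.27. That 1.96% lies near the 1.78% of all genes. The 5 annotations with at least 200 UMIs that collect ribosomal RNA reads gave ratios from 0.94 for Gm26917 to 1.36 for Gm42418. They were within 2-fold, as were most of the 9835 genes. Of 7 nuclear-retained noncoding RNAs, 2 were at least 2-fold higher in the wild-type library, *Malat1* with 4560 against 1814 CPM and *Rian* with 180 against 85.0 CPM, and *Kcnq1ot1* was lower at 386 against 494 CPM.

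The level of the 10 transcripts followed the ribosomal protein (RP) share of a cell. RP genes encode the protein subunits of the ribosome, and their 84 genes took a median of 9.53% of UMIs in wild-type and 10.6% in knockout cells. Cells of each library were ordered by this share and cut into 4 classes of equal size. In the lowest class of wild-type cells the L1-like transcripts summed to 1982 CPM (1929 to 2037). They fell through 1301 and 787 CPM in the middle classes to 216 CPM (200 to 233) in the highest. In knockout cells the 4 classes gave 1220, 436, 192 and 31.4 CPM. The lowest class therefore stood 9.19 times (8.48 to 9.98) above the highest among wild-type cells and 38.9 times (30.8 to 49.8) among knockout cells. These classes cover different RP ranges, with median RP shares of 7.46% and 4.19% in the lowest class. Between cells under 5% and cells from 15% RP share the L1-like transcripts differed 62.9 times (51.2 to 77.8) in the wild-type and 83.0 times (62.4 to 113) in the knockout library, and for the 10 together the order of the libraries turned, with 72.3 and 41.8 times. Cells below 5% held few UMIs, their median depth being 830 UMIs for wild-type and 1197 for knockout, whereas those from 15% had 7501 and 5852 UMIs. Median depths were similar across the 4 equal wild-type classes, from 5540.5 to 6467 UMIs, but in the knockout library the lowest class had a median of 1396.5 UMIs and the part of depth in these differences was not tested.

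Gm26870 moved the same way with the RP share. It fell from 1147 CPM (1106 to 1189) in the lowest to 163 CPM (149 to 177) in the highest class of wild-type cells, and from 333 to 46.2 CPM in the knockout cells. Each of the 10 transcripts was higher in the lowest than in the highest class of wild-type cells, from 6.17 times for Gm21833 to 15.4 times for Gm21750. In wild-type cells 27.6% of the 9835 genes were at least 2-fold higher in that class, and 40.3% in knockout cells. The 10 were chosen from these same cells, so nothing is read from their standing beside these shares. In the knockout library Gm48401 had 48 UMIs in the lowest and 0 in the highest class, and the other 9 were 7.20 to 58.6 times higher. Over all 9835 genes the median of this ratio was 1.21 for wild-type and 1.44 for knockout cells, and over the 7 nuclear-retained RNAs it was 3.50 and 5.72.

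Cells were then compared between the libraries at like RP share. In cells with 5% to 10% of UMIs on RP genes the L1-like transcripts summed to 1460 CPM in wild-type cells, beside 604 CPM in knockout cells, a ratio of 2.42 (2.31 to 2.53). Below 5%, in the shallow cells, the ratio was 2.13 (1.88 to 2.40), from 10% to 15% it was 2.71 (2.48 to 2.96), and from 15% it was 2.81 (2.00 to 3.98). The ratio of the L1-like transcripts was thus between 2.13 and 2.81 in the 4 classes of RP share. At like mitochondrial share it was not as even, with 6.74 (5.72 to 7.99) under 1%, 3.86 from 1% to 2%, 2.79 from 2% to 5% and 2.96 from 5%. Gm26870 did not keep 1 ratio across the RP classes. It gave 8.67 (7.06 to 10.7) below 5%, 3.11 from 5% to 10%, 2.34 from 10% to 15% and 1.10 (0.767 to 1.57) from 15%, where the interval includes equal levels.

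With the mitochondrial share the order was the reverse. Among 4 classes of equal size by the share of mitochondrially encoded transcripts, in the lowest class of wild-type cells the L1-like transcripts summed to 288 CPM, and in the highest to 1807 CPM. In the knockout library the same classes gave 31.7 and 989 CPM. Gm26870 rose from 155 to 1102 CPM and from 32.6 to 367 CPM. All 10 transcripts were lower in the lowest than in the highest class in both libraries, with intervals of the ratio under 1. All 10 were at least 2-fold lower in the lowest class, as were 21.4% of the 9835 genes in wild-type and 37.8% in knockout cells. The median of this ratio over all genes was 0.90 and 0.73, and over the 7 nuclear-retained RNAs 0.49 and 0.27. The lowest mitochondrial class was also RP-rich, with a median RP share of 14.2% in wild-type and 16.5% in knockout cells. The 2 orders are thus not independent, and the cells that their classes share were not counted. The 10 were chosen from these same cells, so nothing about the set is read from either order.

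**Figure D4:**
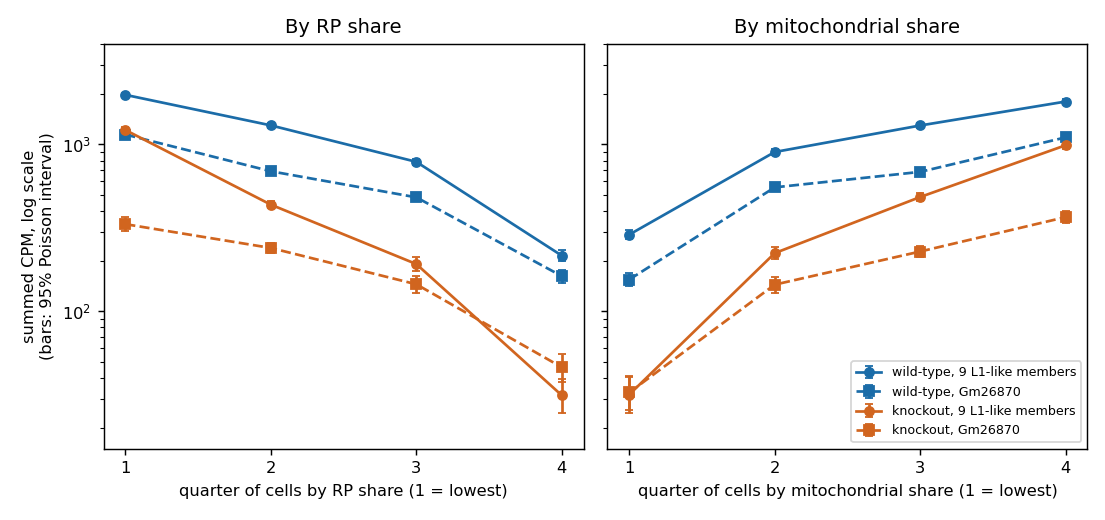
Summed CPM on a log axis of the 9 L1-like transcripts (circles) and Gm26870 (squares) in 4 equal classes of the cells of each library, by RP share (left) and mitochondrial share (right), with 95% Poisson intervals. Levels fall from the lowest to the highest RP class, 1982 to 216 CPM for the wild-type L1-like transcripts, and rise with the mitochondrial share, 288 to 1807 CPM.

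The levels also differed with depth. The 10 transcripts together gave 4955 CPM (4645 to 5281) in the 214 wild-type cells with 500 to 2000 UMIs, and 1513 to 1608 CPM in the 3 deeper classes. Knockout cells gave 1384 CPM in the 512 shallow cells and 466 to 697 CPM in the deeper ones. The sum hides opposite orders in the 3 deeper wild-type classes, cut at 5000 and 10000 UMIs. From the shallowest of them to the deepest the L1-like transcripts gave 1148, 1035 and 835 CPM and Gm26870 459, 573 and 678 CPM. Their intervals do not overlap but cover counting error only, not the spread between cells. Over wild-type cells of at least 2000 UMIs the Pearson r with the logarithm of depth was small. It was 0.10 for Gm26870 and -0.04 to 0.03 for single L1-like transcripts. In the same classes of knockout cells the L1-like transcripts gave 504, 308 and 357 CPM and Gm26870 193, 158 and 197 CPM. Barcodes under 500 UMIs, which were not counted as cells and may hold free RNA or fragments, gave 1906 CPM (1779 to 2040) over 2472 wild-type barcodes. The 4423 knockout barcodes of this kind gave 1074 CPM (997 to 1155). Taken as a sum the transcripts thus stood higher in these barcodes than in the deeper cells of the same library. Among the wild-type barcodes Gm26870 gave 1057 CPM and the L1-like transcripts 850 CPM, the latter within the 835 to 1148 CPM of the deeper cells. Among the knockout barcodes Gm26870 gave 463 CPM and the L1-like transcripts 611 CPM, both above the deeper cells, where the L1-like transcripts gave 308 to 504 CPM.

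Feeder-like cells held less of the L1-like transcripts. In the 41 wild-type cells the 9 summed to 194 CPM (154 to 242), against 1071 CPM (1052 to 1091) in the other 1815 cells. By summed UMIs Gm26870 was higher in them, at 833 CPM (747 to 927), while the other cells gave 594 CPM (580 to 608). The share of cells holding a Gm26870 UMI at equal depth, given below, was not higher in these wild-type cells. In the 21 knockout feeder-like cells the L1-like transcripts gave 212 CPM (134 to 317), and Gm26870 193 CPM (120 to 295), beside 397 and 184 CPM in the other knockout cells. The median depth of the feeder-like cells was 9273 UMIs for wild-type and 2295 UMIs for knockout.

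At an equal depth of 2000 UMIs per cell, 76.0% (exact binomial interval 73.9% to 78.1%) of the 1642 wild-type cells would hold at least 1 UMI of the 10 transcripts. The share was 42.7% (39.8% to 45.7%) for the 1110 knockout cells. The 214 wild-type and 512 knockout cells under that depth were left out. Without thinning the shares were 89.3% and 64.1%. For the L1-like transcripts alone the shares at 2000 UMIs were 67.5% and 33.2%, and for Gm26870 they were 43.6% and 20.7%. No cell type here should lack these repeats, but in the 39 wild-type feeder-like cells of that depth the share for the L1-like transcripts was 30.8% (17.0% to 47.6%). Free RNA was not subtracted from these shares. Those at 2000 UMIs are expected shares, and their intervals treat the cells of 1 library as independent draws.

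Among cells of at least 2000 UMIs the spread was wide. The 10 transcripts together ranged from 0 to 15776 CPM in wild-type cells, with a median of 1180 CPM and 175 cells at 0. In knockout cells the median was 210 CPM, the highest cell stood at 11038 CPM and 398 cells were at 0. The 75th percentile of knockout cells was 729 CPM, below the wild-type median.

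The 10 transcripts varied together over cells. On log values per 10000 UMIs the median Pearson r over the 45 pairs was 0.35 in wild-type and 0.34 in knockout cells, from 0.09 to 0.66 and from 0.14 to 0.67. Since the 10 were picked for leading 1 group of these cells, co-variation was part of their choice and nothing is read from it. These values are descriptions over cells of 1 library that share its preparation, and they depend on depth. With each cell thinned to 2000 UMIs the median over pairs was 0.14 and 0.19.

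Pairs of L1-like transcripts had a median r of 0.38 in wild-type cells, and pairs with Gm26870 had one of 0.28, although Gm26870 shares no 25-base word with them. Gm49273 and Gm43540, with 76.0% of words in common, had the highest r in wild-type cells, 0.66. Over the 36 L1-like pairs the r in wild-type cells correlated with the share of words in common at 0.63 (Pearson) and 0.46 (Spearman). In the knockout cells these were 0.53 and 0.38. Pairs are not independent, since each transcript enters 8 of them. The r also depends on the number of UMIs, which was not held equal between pairs. Gm21833, with 167 UMIs in wild-type cells, had r of only 0.11 to 0.23 with the other L1-like transcripts there. The part of word sharing in r was therefore not separated from that of UMI number or of the choice, and nothing is read from these coefficients. Gm21833, with the fewest UMIs, had the lowest r with the sum of the others, 0.19, and Gm48415 the highest, 0.64.

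**Figure D5:**
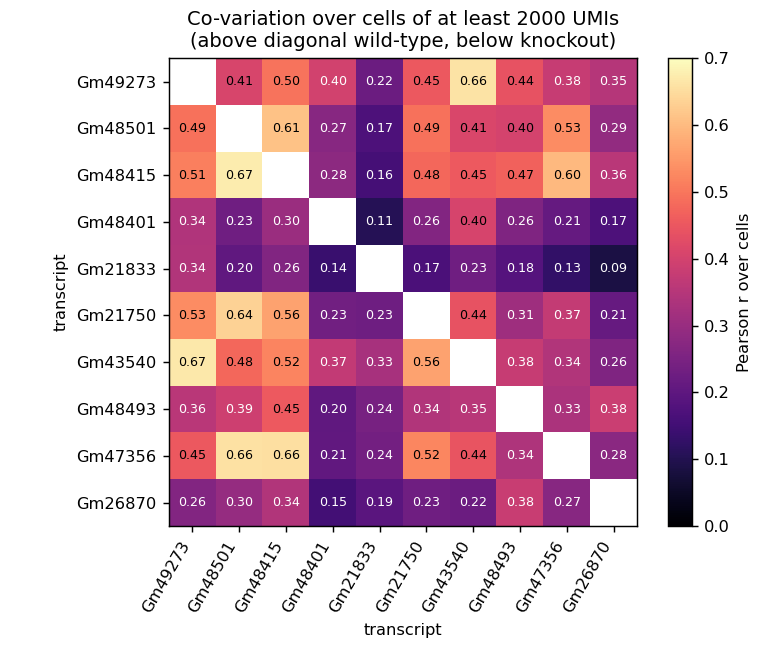
Pearson r over cells of at least 2000 UMIs for each pair of the 10 transcripts, in wild-type cells above the diagonal and knockout cells below it. Gm49273 with Gm43540 reaches 0.66 and 0.67, and the lowest value is 0.09, for the rare Gm21833 with Gm26870 in wild-type cells.

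The summed level of the 10 transcripts correlated with the RP share of the cell at -0.70 in wild-type and -0.65 in knockout cells, and with the mitochondrial share at 0.57 and 0.56. With the logarithm of depth the values were -0.04 and 0.09. Since the 10 were chosen from these same cells, nothing is read from these coefficients. The genes most like the sum in wild-type cells were Gm47457 (0.65), Gm48132 (0.64), Gm47102 (0.64) and Gm48270 (0.62), all of which share L1-like sequence in the same orientation, and then *mt-Nd1* (0.61), which encodes a subunit of respiratory complex I. Among the 50 most like genes 15 were L1-like in the same orientation, of 32 such genes among the 9825 compared, and 29 were protein-coding, beside 8167 (83.1%) of those compared. Genes that share sequence with the 10 can draw on the same reads, so nothing is read from these counts. The lowest values belonged to *Rplp0* (-0.55), the processed pseudogene Gm8730 (-0.53), *Rps18* (-0.52), *Rplp2* (-0.51) and *Rps2-ps10* (-0.51). *Rplp0*, *Rplp2* and *Rps18* encode ribosomal proteins.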

How the data were processed

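The values deposited by the authors are UMI counts for each gene in each barcode, made with an inDrop pipeline from the literature. Their processing notes name the mm10 build and Seurat 2.3.4, and the aligner and annotation are not given in the sources used here. A separate column of ambiguous UMIs, which fit more than 1 gene, was left out of all levels. Of 54146 identifiers 54079 matched GENCODE M21 without their version. The study's limits for cells (500 UMIs or more, mitochondrial UMIs no more than 20%) were used, and doublets were not removed. Kept cells held 11639256 wild-type and 9340855 knockout UMIs, and 3 counts stand for 0.258 and 0.321 CPM. UMIs were summed over cells and given as CPM with exact Poisson intervals at 95%. For ratios over all genes 0.5 UMIs were added. The scripts used Python 3.11.15, numpy 2.4.6 and scipy 1.17.1 and were tested on simulated counts. The 10 transcripts and all gene lists were chosen with earlier results of these data known. Named besides them were the 5 genes with the highest and the 5 with the lowest r with their sum in wild-type cells, overlapping genes, *Lin28a*, the listed groups, and examples from the sequence-related annotations, which were chosen after their values were seen.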

Additional observations from a re-analysis of the deposited data

Results flagged for a closer look

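The deposited tables hold, beside the counts used above, UMIs that the pipeline could not give to 1 gene, and that enter no comparison. Some of the 10 transcripts have them. Over all barcodes the wild-type library had 287 such UMIs, the knockout library 186, against 20039 and 6151 assigned ones, so that 1.41% and 2.94% of their UMIs were ambiguous, beside 0.523% and 0.584% over all genes. They were uneven among the transcripts. Gm48493 had the most, with 161 and 96, and its partners included Gm48501, another of the L1-like transcripts, and Gm48499, which shares 96.5% of its 25-base words with them. Gm47356 had 79 and 58, beside 838 and 355 assigned ones, and all its partners in both libraries were sequence-related. Gm48401 had 33 and 21, beside 423 and 140 assigned ones. Each of the other seven had 4 or fewer in either library, among them Gm26870 with 0 and 1 and Gm21833 with 0 in both.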

How the results depend on the processing

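No paired analysis was possible because each genotype has 1 library. Over 11 alternatives the summed ratio of the 10 transcripts kept its direction and ranged from 2.51 to 3.13. It was 2.97 in cells of at least 2000 UMIs, 2.70 over all barcodes, 3.13 without cells under 5% RP share, 2.94 with median-of-ratios scaling and 2.51 with each cell weighted equally. The median ratio of the 10 was 2.60, from 2.17 with each cell weighted equally to 2.97 without cells under 5% RP share. At 4-fold 1 of 10 passed, against 8 of 9835 genes. With genes of at least 50 UMIs the background was 402 of 15453 genes (2.60%) in place of 175 of 9835. The shares of cells with a UMI were 45.6% and 22.7% at 500 UMIs per cell, and 89.3% and 64.1% without thinning, for wild-type and knockout. With fixed limits the lowest RP class stood 72.3 and 41.8 times above the highest for the 10 together, in place of 8.27 and 20.02, and the highest mitochondrial class 18.1 times above the lowest in the wild-type, in place of 6.56. The median r of pairs at 2000 UMIs per cell was 0.14 and 0.19. Of the 110 ratios of single transcripts under these alternatives 0 changed direction, and 17 left the counting interval of the reported value. One library per genotype, reads that copies share and counting error are the limits of every value. No cause was tested.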
